A study of Mus musculus with 10 samples.

Results

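The connexin genes Gja1, Gja4, Gja5, Gjb2 and Gjc1 and the potassium channel subunit gene Kcne3 are 6 of the 24470 gene entries counted in cultured mouse testes. They were chosen from earlier results of the same comparison of inhibitor with vehicle, in which vessel-type connexins and Kcne3 had fallen and Gja1 had not. Their values in that comparison are therefore given as a description, with no test, and nothing is supported with them.

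The study asked what happens in the fetal testis when glycogen cannot be broken down. GPI blocks glycogen phosphorylase, on which that breakdown depends. Male gonads were taken with the mesonephros attached from 5 C57BL/6 embryos at E12.5, and 1 gonad of each embryo was cultured for 48 h with 75 µM GPI while its partner received DMSO, the vehicle. After culture the mesonephros was removed, and RNA of the whole gonad was sequenced.

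The vehicle group is thus 5 cultured testes of C57BL/6 embryos with DMSO, and the GPI group is the 5 partner testes of the same embryos, labelled M1 to M5. Both groups went through the same 48 h outside the body. Libraries held between 10203679 and 15590223 counts with vehicle and between 11025409 and 15635322 with GPI. Markers of the labelled tissue were present: in the vehicle testes the Sertoli cell gene Sox9 had 1231 ± 213 normalized counts (SD, n = 5), the Leydig cell gene Hsd3b1 1718 ± 892 (SD, n = 5) and the germ cell gene Dazl 580.2 ± 272 (SD, n = 5). Normalized counts are counts divided by the TMM-scaled library size and multiplied by the mean of that size over the 10 libraries.

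Connexins are membrane proteins that assemble into channels, and channels of neighbouring cells dock to form gap junctions through which ions and small metabolites pass. Gja4 and Gja5 are the connexins of arterial endothelium, Gjc1 is found in vascular smooth muscle and in early heart, Gjb2 in epithelia, and Gja1 in many cell types, among them Sertoli and interstitial cells of the testis. Kcne3 is no connexin: it encodes a small accessory protein with a single membrane-spanning segment that changes the gating of voltage-gated potassium channels, above all those formed by Kcnq1.

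In brief, the vessel-type connexins Gja4 and Gja5 and the channel subunit Kcne3 were lower with GPI in 5 of 5 embryos, Gjc1 was lower by a much smaller amount, and Gja1 was higher in 5 of 5 embryos. Gjb2 was near the limit of detection. Because RNA of the whole gonad was measured, fewer cells of a type and less RNA per cell cannot be told apart for any of these genes.

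Gja5 (Entrez Gene 14613, mm10 chromosome 3 from 97032402 to 97053634) contributes to conduction along the endothelium of arteries. The normalized counts of Gja5 in embryos M1 to M5 were 199, 158, 266, 260.0 and 171 with vehicle and 12.3, 3.24, 9.51, 1.05 and 6.54 with GPI. All GPI libraries lay far below the lowest vehicle library, and embryo M4, among the highest with vehicle, was the lowest with GPI. The means were 211 ± 50.1 with vehicle and 6.53 ± 4.56 with GPI (SD, n = 5), which leaves 3.10% of the vehicle level and a fitted log2 fold change of -5.02 (standard error 0.32). The GPI libraries held 1 to 11 counts of Gja5 each, so the size of this change is set by few counts. In embryo M4, with 1 count against 261, the GPI testis had 0.405% of the vehicle level, with an exact 95% binomial interval from 0.0102% to 2.27% that covers counting error only.

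Gja4 (Entrez Gene 14612, chromosome 4 from 127311420 to 127314039) is the partner of Gja5 in arterial endothelium. In embryos M1 to M5 the normalized counts of Gja4 were 106, 152, 116, 181 and 118 with vehicle and 56.0, 27.6, 12.4, 28.4 and 46.9 with GPI. The groups did not overlap, but the gap was narrow in embryos M1 and M5, which kept 52.6% and 39.7% of the vehicle level, and wide in M2, M3 and M4, which kept 18.2%, 10.6% and 15.7%. The means were 135 ± 31.2 and 34.2 ± 17.2 (SD, n = 5), 25.4% of the vehicle level, and the fitted log2 fold change was -2.05 (standard error 0.30). Within each embryo the log2 ratio of Gja5 was lower than that of Gja4, by 1.5 to 3.83, so the 2 arterial connexins did not fall by the same proportion in any of the 5 pairs.

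Gjc1 (Entrez Gene 14615, chromosome 11 from 102799478 to 102819686) couples smooth muscle cells of vessels and cells of the developing heart. The normalized counts of Gjc1 were 819, 862, 872, 775 and 794 with vehicle and 601, 679, 651, 567 and 646 with GPI. The 5 embryos behaved almost alike: each GPI testis kept between 73.2% and 81.4% of the level of its partner, and the groups did not overlap. The means were 824 ± 42.0 and 629 ± 44.3 (SD, n = 5), with a fitted log2 fold change of -0.39 (standard error 0.08).

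Gja1 (Entrez Gene 14609, chromosome 10 from 56377300 to 56390419) is the main connexin of gap junctions between Sertoli cells. Normalized counts of Gja1 in embryos M1 to M5 were 1328, 1922, 1627, 1422 and 2168 with vehicle and 2252, 2565, 2649, 3416 and 2599.8 with GPI. Every GPI library lay above the highest vehicle library, although the margin was small for embryo M1, whose GPI testis at 2252 was just above the vehicle testis of embryo M5 at 2168. The means were 1694 ± 349.8 and 2696 ± 431 (SD, n = 5), a 1.59-fold higher level with GPI and a fitted log2 fold change of 0.68 (standard error 0.12).

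Gjb2 (Entrez Gene 14619, chromosome 14 from 57098602 to 57104702), a connexin of epithelia and of the inner ear, had 1 to 5 counts per vehicle library and 1 to 16 per GPI library. The counts in embryos M1 to M5 were 3, 3, 5, 3 and 1 with vehicle and 3, 16, 9, 9 and 1 with GPI. The groups overlapped, the testes of embryos M1 and M5 showed no difference in counts, and Gjb2 did not pass the filter on low counts, so no fold change was fitted. In embryo M2, with 16 counts against 3, the GPI testis had 362% of the vehicle level. Its exact 95% interval, from 104% to 1941%, covers counting error only, and no difference is read from it.

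Kcne3 (Entrez Gene 57442), on chromosome 7 from 100176670 to 100184869, encodes the accessory channel protein. Its normalized counts in embryos M1 to M5 were 327, 483, 236, 303 and 362 with vehicle and 1.12, 8.92, 1.90, 1.05 and 1.09 with GPI. In 4 of the 5 GPI testes 1 or 2 counts were left, and the fifth, of embryo M2, had 11 counts. The means were 342 ± 91.4 and 2.82 ± 3.43 (SD, n = 5), which is 0.823% of the vehicle level, with a fitted log2 fold change of -6.80 (standard error 0.29). The GPI testis of embryo M1 kept 0.343% of the vehicle level (exact 95% interval 0.00865% to 1.92%), that of M3 0.807% (0.0971% to 2.95%), that of M4 0.347% (0.00877% to 1.95%) and that of M5 0.301% (0.00761% to 1.69%). The testis of M2, at 1.85% (0.914% to 3.34%), was the highest, and its interval overlapped the others. Each of these intervals covers counting error only. Without embryo M2 the fitted log2 fold change was -7.72.

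**Figure D1:**
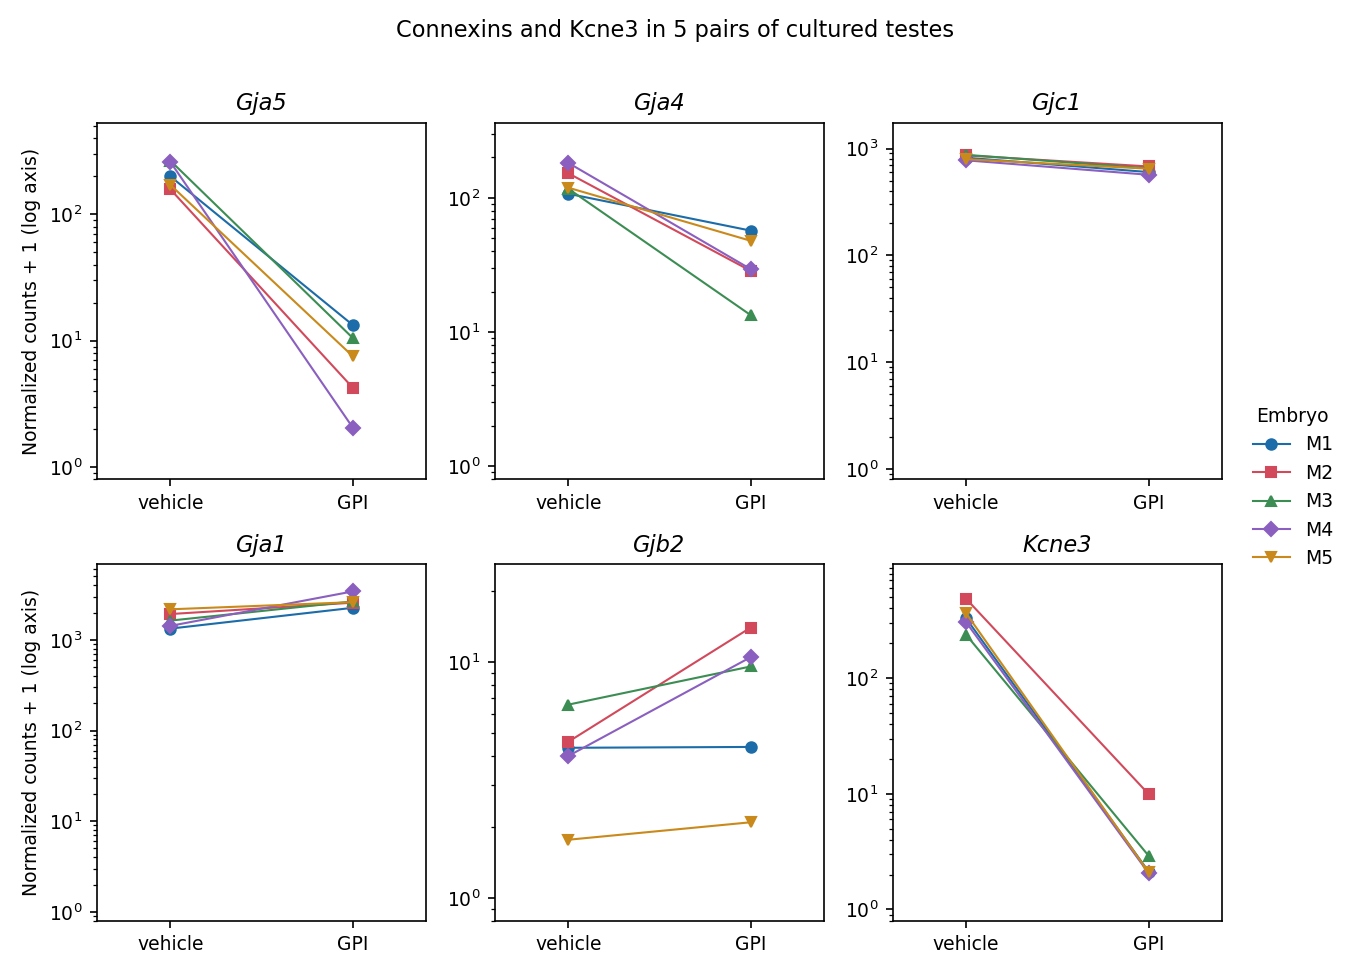
Normalized counts plus 1 on log axes for 5 connexins and Kcne3 in vehicle-treated and GPI-treated testes, with each line joining the 2 testes of 1 embryo (n = 5). Gja5 fell from between 158 and 266 to between 1.05 and 12.3, Kcne3 from between 236 and 483 to between 1.05 and 8.92, while Gja1 lay between 2252 and 3416 with GPI, above its vehicle range of 1328 to 2168.

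Of the 6 genes, 5 passed the filter on low counts. Over all 13941 tested genes, edgeR's quasi-likelihood test at an FDR of 0.05 called 1654 (11.9%) lower and 1544 (11.1%) higher. This balance depends on scaling, since with total counts only it called 1972 lower and 1238 higher. The GPI libraries lay all below the vehicle libraries for 4 of the 6 genes and all above for 1, and for 9.05% and 7.07% of all tested genes. Since the genes were chosen from this comparison, nothing is read from these counts. Ordered by fitted decrease among the 13941 tested genes, Kcne3 stood at place 2, Gja5 at place 12 and Gja4 at place 306.

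The contrast that the choice of genes names, of vessel-type connexins with Gja1, was taken within each embryo as a difference of log2 ratios of GPI over vehicle (prior count 2). For Gja5 minus Gja1 the differences in embryos M1 to M5 were -4.58, -5.34, -5.24, -7.69 and -4.60, with a mean of -5.49 ± 1.28 (SD, n = 5). For Gja4 minus Gja1 they were -1.66, -2.79, -3.74, -3.85 and -1.56, with a mean of -2.72 ± 1.10 (SD, n = 5). Embryo M4 gave the widest separation for both genes, since its Gja1 ratio was the highest of the 5 at 1.26 and its Gja5 ratio the lowest at -6.42. Gjc1, with a mean difference from Gja1 of -1.07 ± 0.45 (SD, n = 5), was nearer to Gja1 than either, and Kcne3 was farthest, at -7.01 ± 0.78 (SD, n = 5).

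**Figure D2:**
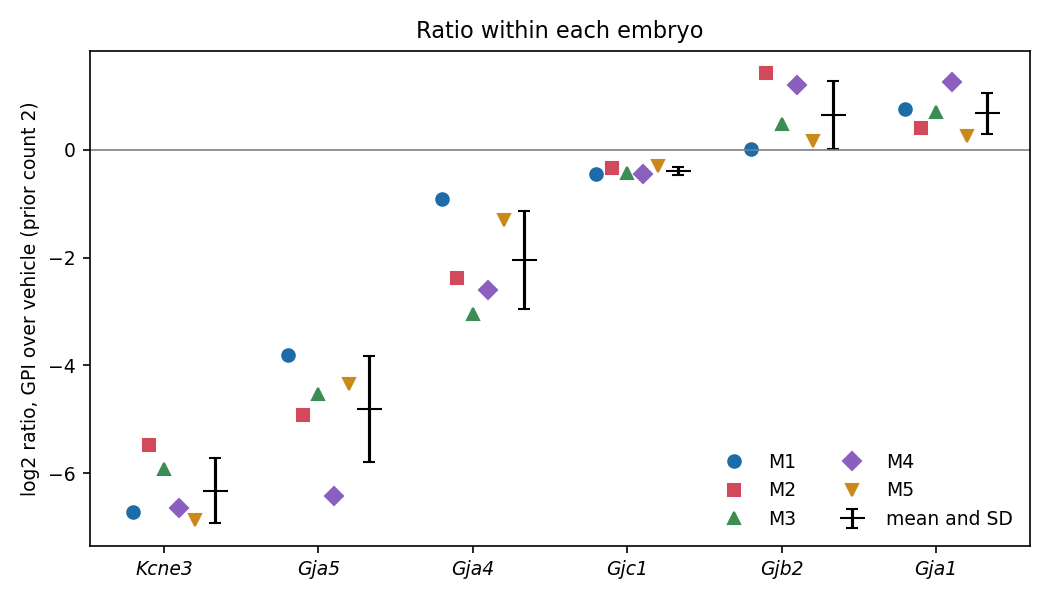
Log2 ratio of GPI over vehicle within each of the 5 embryos for Kcne3 and 5 connexins, with the mean and SD in black. The mean ratios run from -6.33 for Kcne3 through -4.81 for Gja5, -2.04 for Gja4 and -0.39 for Gjc1 to 0.65 for Gjb2 and 0.68 for Gja1.

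Levels of different genes were compared per transcript length, as TMM-scaled CPM per kilobase of the longest annotated protein-coding transcript. These lengths are from GENCODE M21, while reads were counted on RefSeq Curated gene models, whose lengths were not available and may differ. With vehicle, Gja1 came first at 43.2 ± 8.92, followed by Gjc1 at 28.9 ± 1.47, Kcne3 at 21.0 ± 5.61, Gja4 at 6.49 ± 1.5, Gja5 at 4.66 ± 1.11 and Gjb2 at 0.110 ± 0.058 (SD, n = 5 each). The ranges of Gjc1 and Kcne3 overlapped, as did those of Gja4 and Gja5, while the other neighbours in this order did not. This order rests on the transcript length: with the shortest coding transcript of each gene the means were 763.7 for Gja1, 63.2 for Kcne3, 42.2 for Gja5 and 35.4 for Gjc1. With GPI, Kcne3 stood at 0.173 ± 0.210 (SD, n = 5), Gjb2 at 0.239 ± 0.162 (SD, n = 5) and Gja5 at 0.145 ± 0.101 (SD, n = 5).

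On the same scale the connexins of each library were added up, over 20 family members that had a transcript length. The sum was 84.5 ± 8.23 with vehicle, between 73.4 and 93.2, and 93.5 ± 9.75 with GPI, between 82.0 and 109 (SD, n = 5), so the ranges overlapped. Within this sum the share of Gja1 was 50.7% ± 5.78 with vehicle and 73.3% ± 3.92 with GPI, and its GPI shares, from 70.0% to 79.9%, all lay above its vehicle shares, from 45.7% to 59.3%. The share of Gjc1 was 34.5% ± 3.43 and 23.8% ± 3.17, that of Gja4 7.73% ± 1.95 and 1.82% ± 1.05, and that of Gja5 5.61% ± 1.59 and 0.163% ± 0.123 (SD, n = 5). These shares rest on the transcript length. The shortest coding models of Gja1 and Gja5, at 180 and 405 bases, are partial, since the coding sequences in the longest have 1146 and 1104 bases. With the shortest coding transcript of each gene, an alternative chosen after the data were seen, the share of Gja1 was 89.5% ± 2.64 with vehicle and 97.5% ± 0.497 with GPI, and that of Gjc1 4.27% ± 0.722 and 2.21% ± 0.376 (SD, n = 5). That of Gja5 was then 5.18% ± 1.78 and 0.114% ± 0.0869, and that of Gja4 0.784% ± 0.242 and 0.138% ± 0.0836 (SD, n = 5). With vehicle the ranges of Gja5 and Gjc1 then overlapped, and with GPI Gjc1 came second with either length.

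**Figure D3:**
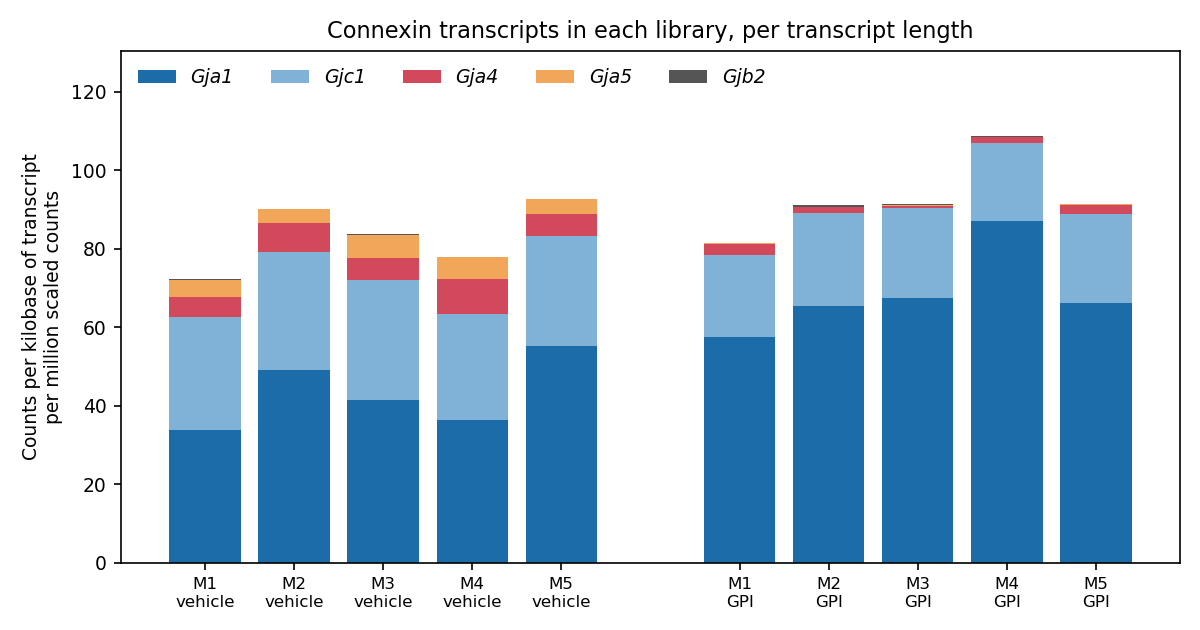
Stacked bars of connexin levels in each of the 10 libraries, in TMM-scaled CPM per kilobase of transcript. The parts for Gja4 and Gja5 shrink from means of 6.49 and 4.66 with vehicle to 1.65 and 0.145 with GPI, while the part for Gja1 grows from 43.2 to 68.8.

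The other 15 connexin genes of the family list were almost silent. Of the 15, 0 passed the filter on low counts, so edgeR gave 0 calls among them and 0 unadjusted p-values under 0.05. DESeq2, which filters genes in another way, called 1 of them and limma-voom 0. In 3 of the 15 there were 0 counts in all 10 libraries.

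Kcne3 belongs to a family of 5 genes, and of the other 4, Kcne4 and Kcne1l (also named Kcne5) were tested. Kcne4, an inhibitory subunit, had 60.1 ± 18.0 normalized counts with vehicle and 76.7 ± 10.1 with GPI (SD, n = 5), a log2 fold change of 0.38 (edgeR, adjusted p = 0.225). Kcne1l had 67.5 ± 21.5 and 53 ± 12.9 (SD, n = 5), a log2 fold change of -0.33 (edgeR, adjusted p = 0.375). Neither passed the threshold with edgeR, DESeq2 or limma-voom, and neither had an unadjusted p under 0.05. Kcne1 and Kcne2 had too few counts to be tested.

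Kcne subunits act on pore-forming channel proteins, and of 9 such genes 5 were tested, of which edgeR called 2 lower and 2 higher. Kcnq1, the pore subunit that Kcne3 holds open in epithelia, had 18, 14, 16, 24 and 27 counts in the vehicle testes of embryos M1 to M5 and 0, 4, 1, 1 and 2 in the GPI testes. The groups did not overlap, and the log2 fold change of Kcnq1 was -3.60 (standard error 0.59, edgeR quasi-likelihood test with Benjamini-Hochberg adjustment, adjusted p = 0.00054), lower in 5 of 5 embryos. These counts are few, and the gene overlaps Kcnq1ot1, an abundant RNA of the opposite strand with 89976 counts over the vehicle libraries and 93265 over the GPI libraries. It also overlaps 4933417O13Rik of the opposite strand, with 37 and 2 counts. Counting took no account of strand, so reads of a shared stretch cannot be assigned to 1 gene. The median log2 fold change of the 5 tested pore subunits was 0.23, against 0.02 over all tested genes.

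Kcnh2, which carries the rapid repolarizing current of the heart, had 216 ± 47.9 and 344 ± 39.0 normalized counts (SD, n = 5) and a log2 fold change of 0.68 (standard error 0.15, edgeR, adjusted p = 0.00417). It was higher in 4 of 5 embryos, and in embryo M5 the testes were alike at 298 with vehicle and 294 with GPI. Kcnq3, a channel of neurons, had 20.4 ± 4.09 and 41.5 ± 14.2 normalized counts (SD, n = 5) and a log2 fold change of 0.99 (standard error 0.31, edgeR, adjusted p = 0.0362), higher in 5 of 5 embryos. With DESeq2 the adjusted p of Kcnq3 was 0.0588, and without embryo M1, M2, M3, M4 or M5 it was 0.0582, 0.0787, 0.0509, 0.169 and 0.0771 in edgeR. Kcnq5 did not pass the threshold (log2 fold change 0.23, adjusted p = 0.473, edgeR).

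**Figure D4:**
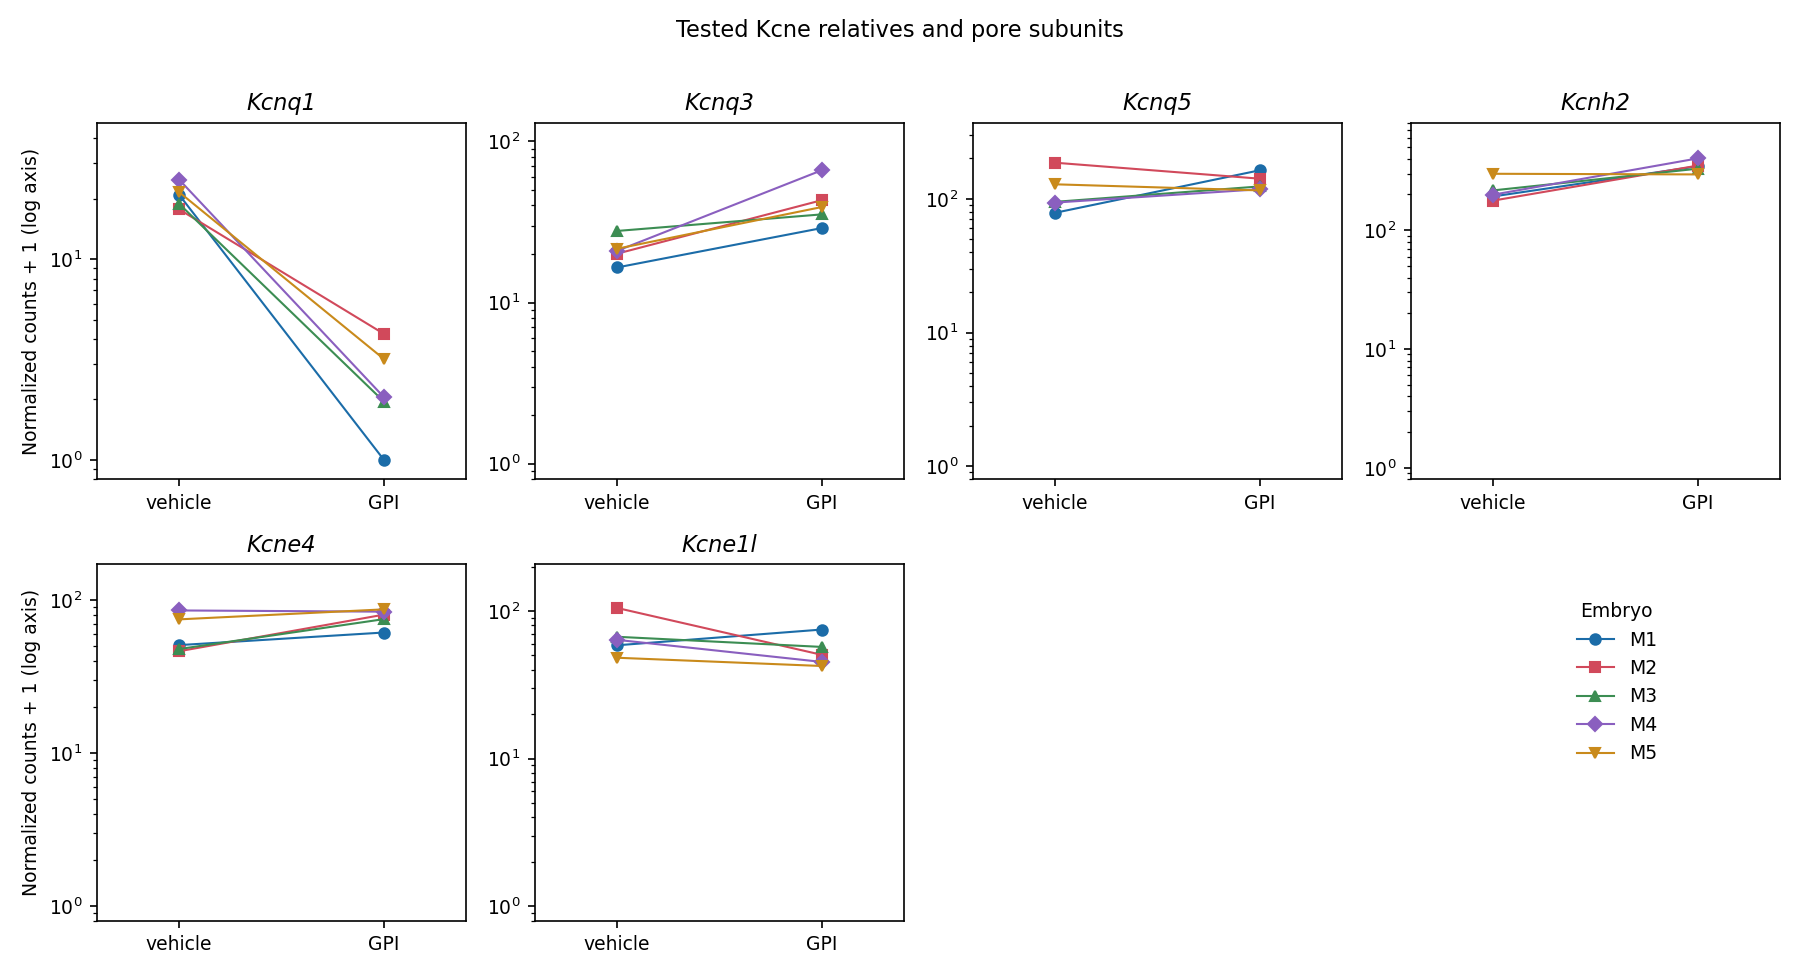
Normalized counts plus 1 on log axes for 4 tested pore subunits and 2 tested relatives of Kcne3, with each line joining the 2 testes of 1 embryo (n = 5). Kcnq1 lies between 16.7 and 23.9 with vehicle and between 0 and 3.24 with GPI, while Kcne4 and Kcne1l overlap between treatments.

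Gap junctions are held and turned over by scaffold, trafficking and kinase proteins. Of a list of 16 genes for these and related proteins, among them the pannexins Panx1, Panx2 and Panx3, 12 were tested. By edgeR 3 of them were called lower and 0 higher, and their median log2 fold change was -0.12 against 0.02 over all tested genes. Unadjusted p-values under 0.05 were found for 4 of the 12, and DESeq2 called 2 and limma-voom 3. Tjp1, the scaffold protein of tight junctions that also binds Gja1, had 7039 and 4306 normalized counts in embryo M1, 8120.2 and 4011 in M2, 6866 and 3744 in M3, 7689 and 3848 in M4, and 6965 and 4169 in M5, with vehicle and with GPI in turn. Its log2 fold change was -0.87 (standard error 0.07, edgeR, adjusted p = 1.16e-06), lower in 5 of 5 embryos with no overlap between the groups. Dbn1, an actin-binding protein that stabilizes Gja1 at the membrane, had -0.30 (edgeR, adjusted p = 0.0349), and lost the call with DESeq2 (0.0554), without the filter on low counts (0.0528) and without embryo M2, M3, M4 or M5 (0.0726, 0.0679, 0.11 and 0.0759). Ctnnb1, the most abundant gene of the list, had a log2 fold change of -0.17 (edgeR, adjusted p = 0.146).

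Several marker lists of cell types moved with these genes. Of 12 endothelial genes 12 were called lower by edgeR, with log2 fold changes between -4.16 and -2.28 and a median of -3.15 against 0.02 over all tested genes, and none of the 12 was at 0 in all libraries. The summed normalized counts of the endothelial list in embryos M1 to M5 were 9538, 9919, 9561, 10709 and 9961 with vehicle and 1240.1, 1487, 976, 776 and 901 with GPI. Each GPI testis thus kept between 7.25% and 15% of the endothelial sum of its partner. The most abundant gene was Cdh5, the cadherin of endothelial junctions (log2 fold change -3.63, edgeR, adjusted p = 3.76e-10), and Pecam1 (-4.16) and Kdr (-2.44) were the other genes with the smallest p.

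Set beside that sum, the genes described above fell to both sides of it. Kcne3 and Gja5 kept less of their vehicle level than the endothelial sum in 5 of 5 embryos, and their log2 fold changes were lower than those of 12 of 12 endothelial genes. Gja4 kept more than the endothelial sum in 5 of 5 embryos, but its 95% intervals for counting error included the endothelial percentage in M2 (18.2% against 15%) and M3 (10.6% against 10.2%). Its log2 fold change of -2.05 was smaller in size than those of 12 of 12 endothelial genes. In embryo M1 the GPI testis kept 13.0% of the endothelial sum, 0.343% of Kcne3, 6.18% of Gja5 and 52.6% of Gja4, and in embryo M4 it kept 7.25%, 0.347%, 0.405% and 15.7%. The part of endothelial cells in the fall of these genes was not tested.

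Of 8 arterial genes 7 were tested, 6 were called lower and 0 higher, with a median log2 fold change of -1.79. Their summed normalized counts were 6216, 5741, 6718, 8236 and 6871 with vehicle and 3207, 2919, 2474, 2581 and 2311 with GPI, and none was at 0 throughout. The highest GPI sum lay below the lowest vehicle sum. Efnb2, the most abundant, which is also made by other cells, had a log2 fold change of -1.16, and Notch4 (-3.45), Dll4 (-2.91) and Hey1 (-1.94), members of the Notch pathway that sets arterial identity, had the smallest p. The part of arterial cells was likewise not tested.

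Mural cells, the pericytes and smooth muscle around vessels, were represented by 8 genes, of which 4 were called lower and 0 higher, with a median log2 fold change of -0.63. Their sums were 4741, 5250.4, 5711, 5191 and 4954 with vehicle and 3291, 2973, 3009, 2361 and 2848 with GPI, again with no overlap and with no gene at 0. Pdgfrb, the most abundant (log2 fold change -1.55), Rgs5 (-4.32) and Cspg4 (-1.44), genes of pericytes, had the smallest p. The 4 mural genes not called were Des (-0.43), Myh11 (-0.15), Acta2 (-0.12) and Tagln (-0.09), and Gjc1 was at -0.39. The part of mural cells in its change was not tested.

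Of 9 Sertoli cell genes 6 were called higher, as Gja1 was higher, and 0 lower, with a median log2 fold change of 0.59. Their sums in embryos M1 to M5 were 2422, 3586, 2567, 3079.9 and 3473 with vehicle and 2975, 4590.3, 4651, 5405 and 4370.4 with GPI. The sums were higher with GPI in 5 of 5 embryos and the groups overlapped. The most abundant was Sox9 (log2 fold change 0.59), and Sox8 (1.43) and Dhh (0.92) had small p-values as well. The 3 genes not called were Amh (0.08), Cst9 (-0.19) and Fgf9 (-0.33). Of 5 fetal Leydig cell genes 4 were tested and 4 called higher, with a median of 2.32, and the list's sums were 1280.0, 2700.4, 3979.8, 1991 and 5303 with vehicle and 9634, 10119, 15749, 18089 and 12928 with GPI. The GPI sums all lay above the vehicle sums. Hsd3b1, an enzyme of steroid synthesis, was the most abundant (1.75), and Cyp17a1 (3.90) and Cyp11a1 (2.90) had the smallest p. Of 5 interstitial genes 2 were called lower and 1 higher (median -0.18): Pdgfra, the most abundant, had a log2 fold change of 0.33, Tcf21 -0.30 and Gli1 -0.42, and the list's sums lay between 13088 and 15646 in vehicle testes and between 13545 and 16319 in GPI testes, which overlap. The part of these cells in the rise of Gja1 was not tested.

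Other cell types changed in the same libraries. Of 8 germ cell genes 7 were tested and 6 called lower, with a median log2 fold change of -4.62. The sums were 1035, 2219, 1348, 1839 and 693 with vehicle and 160.0, 135, 52.3, 56.8 and 122 with GPI, with Dazl the most abundant (-4.62), and with Dppa3 (-5.20) and Sall4 (-4.89) the other genes among the 3 smallest p. The mean germ cell sum with GPI was 7.37% of the vehicle mean, and that of the endothelial list 10.8%. The part of germ cells in the values above was not tested. Of 4 macrophage genes 3 were called lower (median -1.49), with sums of 457, 297, 379, 328 and 279.6 with vehicle and 255, 186, 193, 105 and 104 with GPI. Cd68 was the most abundant (-0.76), and Csf1r (-2.22) and C1qa (-3.78) fell more.

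Of 4 erythroid genes 3 were called lower (median -0.86), and the sums were 1592, 1862, 3306, 2833 and 2577 with vehicle and 1693, 889, 847, 979.5 and 2215 with GPI. These groups overlapped, and embryo M1 was the exception with no decrease. Hbb-y, an embryonic globin, was the most abundant (-0.98), and Alas2 (-0.75), an enzyme of heme synthesis, was also called. Of 7 genes of coelomic and duct epithelium 5 were tested, 1 was called lower (Epcam, -2.19) and 0 higher (median -0.05). The epithelial sums overlapped, at 1368, 734, 942, 621 and 544 with vehicle and 842, 792, 719, 619.7 and 704 with GPI, with Upk3b the most abundant (0.23) and Pax8 at -0.28. In none of these lists was a gene at 0 in all 10 libraries.

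**Figure D5:**
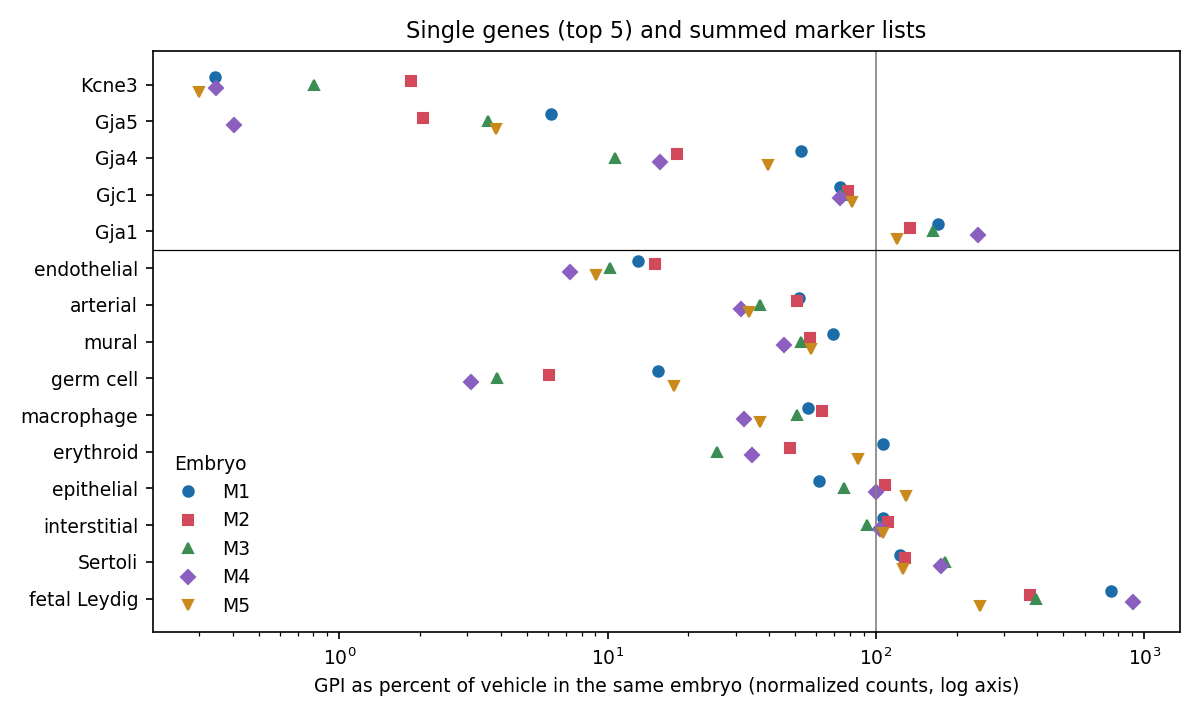
Level in the GPI testis as a percent of the vehicle testis of the same embryo, on a log axis, for 5 single genes and for the summed normalized counts of 10 marker lists. Kcne3 at 0.301% to 1.85% and Gja5 at 0.405% to 6.18% lie left of the endothelial sum at 7.25% to 15%, Gja4 at 10.6% to 52.6% overlaps it, and Gja1 is above 100% in every embryo.

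The genes whose pattern was most like each of the 6 were sought by Pearson correlation of log2 CPM over the 10 libraries, in a search of 11100 tested genes averaging 50 counts or more. The points share the treatment, which can raise a correlation, so each r is also given after the treatment means were removed. For Kcne3 the first 3 were Cdh5 (r = 0.995, and 0.804 with treatment means removed), Cd34 (0.993 and 0.738) and Kcnj8 (0.993 and 0.735). For Gja5 they were Tns1 (0.993 and 0.882), Il2rg (0.992 and 0.888) and Pdlim1 (0.992 and 0.872). For Gja4 they were Itga11 (0.984 and 0.923), Nova2 (0.982 and 0.918) and Anxa6 (0.969 and 0.852).

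For Gja1 the most alike genes were Inha (0.984 and 0.952), Usp32 (0.972 and 0.923) and Gas6 (0.968 and 0.898). For Gjc1 they were Tgfbr2 (0.979 and 0.847), Tcf4 (0.979 and 0.843) and Kcnip3 (0.976 and 0.846), and for Gjb2, whose counts are few, Mrps14 (0.952 and 0.942) and Bcl7a (0.879 and 0.86). Among the 6 genes themselves, Gja5 and Kcne3 had r = 0.941 over the 10 libraries and -0.33 with treatment means removed, and Gja4 and Gja5 had 0.874 and 0.13. For these 2 pairs little or none of the positive correlation was left within treatments. Other pairs kept some: Gja1 and Gja5 had -0.892 and -0.66, Gja4 and Gjb2 -0.605 and -0.53, and Gjc1 and Kcne3 0.945 and 0.51. All of these are descriptions over 10 libraries of 5 embryos.

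In the longest coding transcript of each gene, the coding sequence of Gja1, Gja4, Gjb2, Gjc1 and Kcne3 lay in 1 exon each, and that of Gja5 in 2. No stretch of 50 bases was shared between the coding transcripts of any of the 15 pairs of these genes. None of the 6 entries overlapped another entry of the table. They lie on 6 different chromosomes.

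The 250 bases before the start sites are shown for Gja4, Gja5 and Kcne3, which were lower with GPI, and for Gja1, which was higher. These sequences are from RefSeq (build GRCm38.p6), where 5 of the 6 genes had an entry. The search covered GGAA, the core bound by ETS factors such as Erg of endothelial cells, in either orientation (GGAA or TTCC), and its matches are in capitals. For Kcne3 the window is that of the second of 2 annotated starts, which lies within the gene, because the window of the first overlaps annotated exons. The windows are chr3:97032152-97032401 on the + strand for Gja5, chr4:127314040-127314289 on the - strand for Gja4, chr7:100178433-100178682 on the + strand for Kcne3 and chr10:56377050-56377299 on the + strand for Gja1, each written 5′ to 3′ on the gene's own strand.
Gja5: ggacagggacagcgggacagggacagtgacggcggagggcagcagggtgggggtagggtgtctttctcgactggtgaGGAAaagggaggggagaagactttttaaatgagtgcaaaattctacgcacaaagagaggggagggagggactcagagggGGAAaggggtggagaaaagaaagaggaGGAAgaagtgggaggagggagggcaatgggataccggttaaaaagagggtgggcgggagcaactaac
Gja4: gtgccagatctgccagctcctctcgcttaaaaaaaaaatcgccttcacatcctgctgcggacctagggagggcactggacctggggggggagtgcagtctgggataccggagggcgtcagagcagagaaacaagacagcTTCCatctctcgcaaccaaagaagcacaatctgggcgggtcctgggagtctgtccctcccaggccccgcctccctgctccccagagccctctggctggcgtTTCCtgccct
Kcne3: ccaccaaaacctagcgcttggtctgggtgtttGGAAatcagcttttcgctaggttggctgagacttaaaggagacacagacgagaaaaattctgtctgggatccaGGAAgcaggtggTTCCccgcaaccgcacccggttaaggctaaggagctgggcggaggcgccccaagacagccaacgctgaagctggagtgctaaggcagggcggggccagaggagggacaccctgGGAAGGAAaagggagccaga
Gja1: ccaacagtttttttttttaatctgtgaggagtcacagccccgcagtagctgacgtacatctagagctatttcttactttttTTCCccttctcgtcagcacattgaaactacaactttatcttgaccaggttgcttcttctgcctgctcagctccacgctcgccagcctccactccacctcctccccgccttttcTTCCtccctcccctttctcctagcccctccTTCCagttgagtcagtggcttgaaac
GGAA was found 3 times before Gja5, 2 times before Gja4, 5 times before Kcne3 and 3 times before Gja1. In all, 93.4% of the 32851 promoter windows of this length hold it, with a median of 3 matches, so its presence sets none of the 4 apart. TGGGAA, the core bound by RBPJ in the Notch pathway, which contains GGAA, was found once before Kcne3 and not in the other 3 windows, and 21.6% of all windows hold it. The E box CANNTG occurred 1 time before Kcne3 and 1 time before Gja1 (66.2% of all windows), and AACAAT (9.42%), TGTTTA (12%) and TATAAA (12.4%), cores bound by SOX and FOX factors and the TATA box, were in none of the 4. The GC content of the windows was 56.4% for Gja5, 61.2% for Gja4, 58.0% for Kcne3 and 50% for Gja1, against a median of 52.4% over all windows. These matches describe letters only.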

How the data were processed

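RNA of 10 cultured testes was measured, 5 with GPI and 5 with vehicle. The deposited raw counts cover 24470 entries. According to the authors, STAR 2.5 aligned the reads to mm10, and featureCounts of Subread 1.5.0-p1 counted them on RefSeq Curated genes, unstranded. All 10 count columns were used, and the table has 0 other columns. Groups and embryos come from the sample labels.

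The members and the gene lists were chosen with earlier results of these data known. Counts were scaled by TMM, and edgeR's filterByExpr (minimum count 10, minimum total 15) kept 13941 genes and set aside 10529. Differences were tested by edgeR's quasi-likelihood test with embryo and treatment in the design and Benjamini-Hochberg adjustment over all tested genes at an FDR of 0.05; the members enter this fit, and no test of them is reported. To obtain a standard error, the size of the log2 fold change was divided by the root of its F statistic. Ratios within an embryo used log2 CPM with a prior count of 2. Transcript lengths and exons come from GENCODE M21, and intervals are exact binomial (Clopper-Pearson) at 95%.

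Pairing comes from the labels, since both testes of a pair are from 1 embryo. Correlations of deviations from the treatment mean between the testes of an embryo ran from -0.04 to 0.155 (mean 0.06), against a mean of -0.015 between embryos. No library repeats another, as chi-square over its degrees of freedom was 6.42 to 27.8 for libraries of 1 treatment. Reads were amplified and carry no molecular tags, so errors rest on the spread between embryos.

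Genes were named by a rule: the 6 members, every tested gene of the other connexins, Kcne relatives and pore subunits, of each other list its most abundant gene, its genes at 0 and up to 3 with the smallest p, and the 3 genes most correlated with each member. Some genes that the rule names are left out of the text. Kcnq1ot1, Kcne1, Kcne2, Cnst, Amh, Cst9, Fgf9, Des, Myh11, Acta2, Tagln and 4933417O13Rik fall outside it and were named after their values were seen. Alternatives were DESeq2 size factors, total counts only, DESeq2, limma-voom, no replicate block, no filter on low counts, at least 10 counts in every library, each embryo left out in turn, a prior count of 0.5 and the shortest coding transcript. The procedure was tested on simulated data. Software was limma 3.58.1, edgeR 4.0.16 and DESeq2 1.42.0 in R 4.3.3, and Python 3.11.15, numpy 2.4.6, pandas 2.3.3, scipy 1.17.1 and matplotlib 3.10.9.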

Additional observations from a re-analysis of the deposited data

Results flagged for a closer look

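Among the 5 GPI testes, the Kcne3 value of embryo M2, 8.92 normalized counts, stood far from the others, which lay between 1.05 and 1.90. The gap to its nearest neighbour took 0.892 of the whole range of the group. It was the 1 such group among 38 checked (the 6 genes and 10 marker list sums by treatment, and the ratios within embryos), and chance alone gives about 1 in 20. The value rests on 11 counts.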

How the results depend on the processing

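The directions of the 5 fitted members held under every alternative that gave them a value. With at least 10 counts in every library, Gja5, Kcne3 and Kcnq1 were not tested, so 1 and not 2 of the channel partners and relatives was called lower. Without 1 embryo at a time, Kcne3 ran from -7.72 to -6.60 (log2), the genes called higher from 969 (without M3) and 1024 (without M4) to 1430, against 1544, and the gap junction associated genes called lower from 1 (without M4) to 3. With total counts only, 1972 genes were called lower and 1238 higher, against 1654 and 1544. Of the other connexins, 1 was called lower by DESeq2 and without the filter on low counts. The sign of Cnst, -0.01 and not called, was reversed without embryo M1 (0.072) and without M5 (0.0495), in a range from -0.111 to 0.072 when 1 embryo was left out. Without the replicate block, which ignores the pairing, 1610 genes were called lower and 1498 higher. The number called lower stayed at 2 for the channel genes and at 3 for the gap junction associated genes. None of the 15 other connexins passed the filter on low counts, so their 0 calls could not change with the block. The levels per length in vehicle testes rest on the transcript chosen: with the shortest coding transcript they were 763.7 for Gja1, 42.2 for Gja5, 35.4 for Gjc1 and 63.2 for Kcne3, which changes the order. The shortest models of Gja1 and Gja5 are shorter than their coding sequence and so partial. The shares of connexin transcripts moved as well, that of Gja1 with vehicle from 50.7% to 89.5% and that of Gjc1 from 34.5% to 4.27%, an alternative chosen after seeing the data. Vessel-type connexins minus Gja1 kept their sign, from -3.01 to -2.44 for Gja4 and from -5.72 to -4.94 for Gja5 without 1 embryo. What depth limits is the size of the fall of Gja5, Kcne3 and Kcnq1, with at most 11 counts per GPI library, and any statement on Gjb2. Beyond fewer genes or samples entering a fit, the cause of these shifts was not tested.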
